A study of Mus musculus with 8 samples.

Results

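The genes described here carry iron into liver cells, store it, release it and set the hormone that controls its release. They are the transferrin gene Trf, the receptor genes Tfrc and Tfr2, the iron transporter genes Slc11a2 and Slc40a1, the ferritin genes Fth1 and Ftl1, the hepcidin gene Hamp, the hemochromatosis gene Hfe and the iron regulator gene Ireb2. They were taken by name, with earlier results of these data known. A probe belonged to a gene when its RefSeq accession mapped to that symbol, and no measured value entered that match. All 10 were found among the 20660 genes named on the array, and 9 of them were among the 14025 genes that could be tested. Hamp was not.

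Levels were measured on 8 one-colour Agilent arrays in BMEL cells, a bipotential liver progenitor cell line from mouse embryos, kept in 1 of 3 media. There were 3 arrays of cells in the medium labelled NoRX, 3 in the medium labelled CM and 2 in the medium labelled DIFF. The labels give no genotype, agent, time or medium composition beyond these names, and the series title speaks of media conditioned by human amniotic epithelial cells. Since no label says that the replicates were grown separately, the p-values speak only of the variation among these arrays, part or all of which may be technical. All arrays come from 1 cell line.

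Transferrin is the plasma protein that carries iron, and most cells take it up through the receptor TFRC. Inside the endosome iron is freed and passes to the cytosol through SLC11A2, also known as DMT1. Iron that is not used is held in ferritin, a shell of heavy (FTH1) and light (FTL1) chains, and ferroportin (SLC40A1) is the known iron exporter of mammalian cells. Hepatocytes make transferrin and hepcidin, and hepcidin causes ferroportin to be degraded. HFE and TFR2 take part in sensing plasma iron, and with BMP and SMAD signalling they set how much hepcidin is made. When cells are short of iron, IREB2 and its relative ACO1 bind iron-responsive elements in transcripts, which stabilises Tfrc messenger RNA and holds back ferritin translation. Arrays measure RNA, so translation was not observed.

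Each value below is a level: the log2 of an array's processed signal minus that array's 75th percentile, so that 0 lies at the 75th percentile. Differences are on the same log2 scale with their SE. Adjusted p-values come from limma, fitted over all genes, and a difference passed at an adjusted p under 0.05. The fit assumes 1 spread for all media, but the median SD of a gene was 0.19 in DIFF and 0.064 in NoRX and in CM. The SE of CM against NoRX thus takes in the DIFF spread, and that of comparisons with DIFF can be too small. With only the compared groups fitted, the SE of Hfe was 0.049 for CM against NoRX, in place of 0.088. For DIFF against NoRX it was 0.129, in place of 0.098. A probe counts as well above background by the scanner software's own mark. Levels of different genes come from different probes and are not set against each other. The 3 comparisons share arrays, so they are not independent of one another.

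DIFF replicate 2 stood apart: 46.4% of its spots were well above background (50.8% to 53.5% on the other 7 arrays), and 1159 spots had an uneven local background (3 to 90 on the others). The median difference of all genes between DIFF and NoRX was -0.10, and it was -0.24 with DIFF replicate 2 as the only DIFF array and 0.03 with DIFF replicate 1 as the only one. A part of each array's barcode in the file headers was read here as the slide row, a name that no label gives. That all arrays lay on 1 slide was not checked. By this reading, row 1 held all NoRX arrays with CM replicate 1, and row 2 held the rest. All 10 hepatocyte and liver progenitor markers were well above background on all 8 arrays. Their summed linear level was 1626 to 1728 in NoRX, 1229 to 1324 in CM and 1113 to 1402 in DIFF. In CM 4 were higher and 6 lower than in NoRX, and in DIFF 2 were higher and 7 lower. The keratin genes Krt8, Krt18 and Krt19 weigh most in that sum (mean log2 levels of 8.49, 9.44 and 8.97 in NoRX). The 2 higher in DIFF were Alb and Afp. The mean level of Alb was -3.51 in NoRX, -0.22 in CM and 5.36 in DIFF, and that of Afp 1.26, 1.75 and 3.45. Of the 8 erythroid markers, Hba-a1, Epor and Tspo2 were well above background on all 8 arrays, and Hbb-bs, Hbb-bt and Klf1 on none. Hba-a1 was at -2.17, -2.08 and -1.15 in NoRX, -2.39, -2.15 and -2.03 in CM and -0.43 and -0.61 in DIFF. Mean levels in NoRX, CM and DIFF were -1.44, -2.16 and -2.74 for Epor and -2.00, -1.91 and -2.24 for Tspo2. The list's summed linear level was 0.90 to 1.16 in NoRX, 0.82 to 1.07 in CM and 1.17 to 7.30 in DIFF. The highest of these, on DIFF replicate 2, was carried by Gata1, at a log2 level of 2.65 there against -7.61 on DIFF replicate 1, -6.02 to -5.61 in NoRX and -3.49 to -3.25 in CM. Of 9 macrophage markers only Csf1r was detected on every array and Adgre1, Cd163, Spic and Timd4 on none (summed level 2.04 to 2.47 in NoRX, 3.33 to 3.45 in CM, 1.60 to 1.72 in DIFF). Of the 7 stellate cell markers, Des was detected on every array and Acta2, Lrat and Pdgfrb on none. Of the 6 endothelial markers, Kdr was detected on every array and Tek on none. Mean levels in NoRX, CM and DIFF were -1.92, 0.02 and -2.52 for Des and 3.41, 3.39 and 3.08 for Kdr. For Cdh5 they were -3.87, -2.02 and -5.26, and for Lyve1 -4.80, -7.31 and -1.23. In CM, 1 stellate marker passed as higher and 1 as lower, and likewise 1 and 1 of the endothelial markers. In DIFF against NoRX these were 0 and 2 of the stellate and 1 and 1 of the endothelial markers. The summed stellate level was 0.58 to 0.59 in NoRX, 1.28 to 1.58 in CM and 0.24 to 0.34 in DIFF, and the endothelial one 10.1 to 12.2, 10.5 to 11.4 and 8.30 to 9.77. The part of other cells in the results was not tested. In these bulk RNA samples, fewer cells of a type and less RNA per cell cannot be told apart.

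In CM, 6 of the 9 iron genes tested changed against NoRX: Tfrc fell, and Tfr2, Hfe, Fth1, Trf and Slc11a2 rose. Of all genes, 52.2% changed in this comparison (26.9% rose and 25.3% fell), and the median difference was 0.25 over the 9 iron genes and 0.01 over all genes. In DIFF, 4 of the 9 changed against NoRX: Trf and Slc40a1 rose, and Hfe and Ftl1 fell, where 42.2% of all genes changed (14% rose and 28.2% fell), with medians of 0.15 and -0.10. Between DIFF and CM 5 of the 9 differed, Tfrc, Trf and Slc40a1 higher in DIFF and Hfe and Tfr2 lower, where 59.2% of all genes differed (23.6% higher and 35.6% lower), with medians of -0.14 and -0.11. These shares of iron genes lie near those of all genes, so the counts give no result particular to iron genes. The values of single genes follow.

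**Figure D1:**
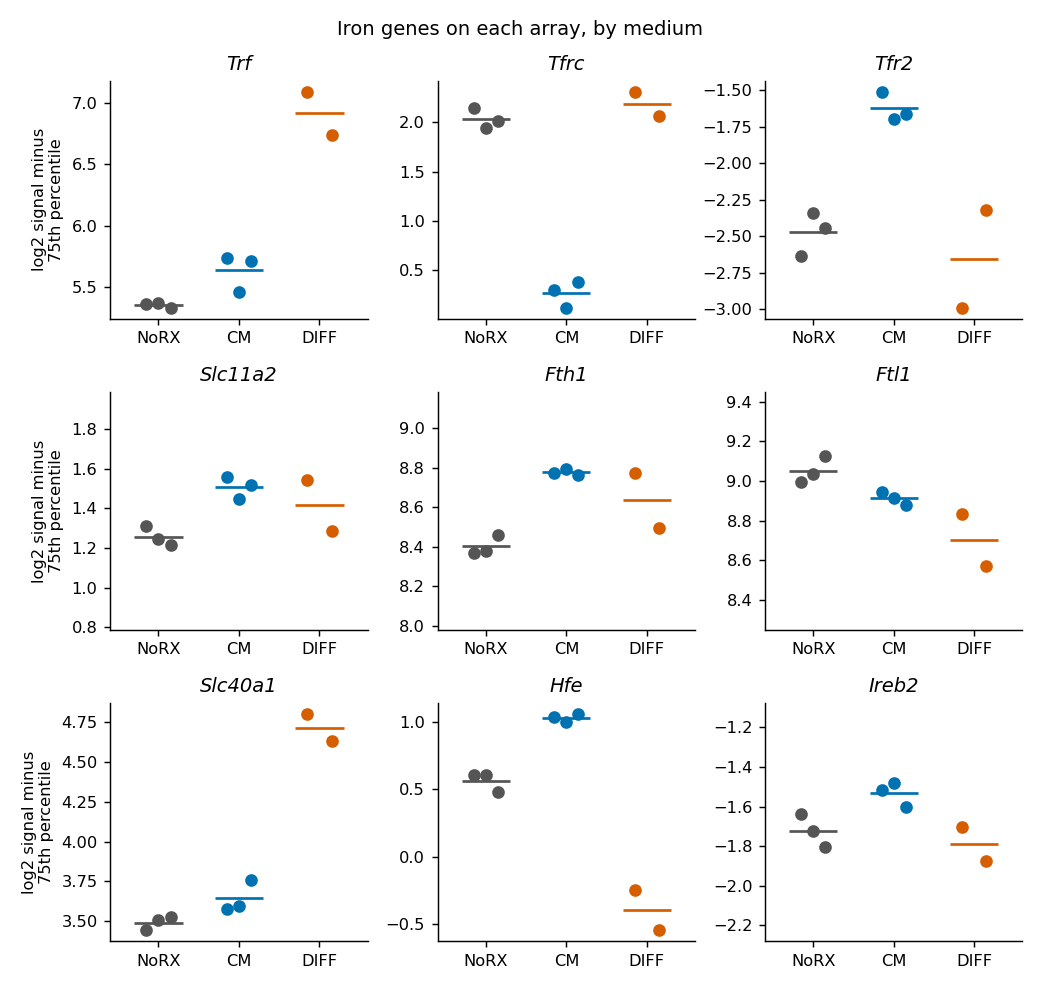
Level of 9 iron genes on each array (points; log2 signal minus the array's 75th percentile) in NoRX (3 arrays), CM (3) and DIFF (2), with lines at the group means and an axis of its own for each gene. The CM arrays of Tfrc lie between 0.11 and 0.38, below all other arrays, and the DIFF arrays of Trf (6.74 and 7.09) and Slc40a1 (4.63 and 4.80) lie above all others.

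The promoters of Hamp, Tfrc and Hfe are shown because the account below turns on these genes of the hormone, the main receptor and HFE. They are the 250 bases before the annotated start, from RefSeq on GRCm38.p6, read 5′ to 3′ on the gene's own strand. Hamp lies on the minus strand (chr7:30944030-30944279), Tfrc on the plus strand (chr16:32608646-32608895) and Hfe on the minus strand (chr13:23710855-23711104). Tfrc has a second annotated start, whose window (chr16:32608872-32609121) is not shown. Capitals mark matches to a motif, searched on both strands.
Hamp: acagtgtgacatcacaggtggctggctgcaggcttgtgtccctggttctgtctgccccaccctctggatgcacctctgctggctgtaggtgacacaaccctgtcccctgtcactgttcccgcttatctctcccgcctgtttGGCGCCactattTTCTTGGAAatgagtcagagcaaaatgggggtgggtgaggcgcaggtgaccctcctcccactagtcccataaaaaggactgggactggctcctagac
Tfrc: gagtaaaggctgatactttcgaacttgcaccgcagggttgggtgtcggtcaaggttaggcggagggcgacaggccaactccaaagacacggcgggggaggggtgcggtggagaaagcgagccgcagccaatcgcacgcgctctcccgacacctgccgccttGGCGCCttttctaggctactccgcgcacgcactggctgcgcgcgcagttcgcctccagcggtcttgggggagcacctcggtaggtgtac
Hfe: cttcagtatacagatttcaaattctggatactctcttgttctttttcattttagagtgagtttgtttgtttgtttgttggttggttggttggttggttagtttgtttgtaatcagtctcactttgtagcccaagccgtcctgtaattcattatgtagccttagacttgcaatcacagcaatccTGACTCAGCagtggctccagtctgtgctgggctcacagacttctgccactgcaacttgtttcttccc
The motif GGCGCC, the core of the BMP response element, stood in Hamp from -109 to -104 and in Tfrc from -89 to -84, counted back from the start, and 9.59% of all 32851 promoter windows hold it. A STAT site (TTCNNNGAA) stood in Hamp from -97 to -89, and 7.02% of windows hold one. The antioxidant response core (TGACNNNGC) stood in Hfe from -67 to -59, and 10.2% of windows hold one. Also searched were the hypoxia response core ACGTG and the E-box CACGTG, which contains it. The hypoxia response core was held by 16.6% of windows and by 3 of the 11 windows of the iron genes. These were the second Tfrc window, from -228 to -224, and windows of Tfr2. The E-box was held by 6.02% of windows and by none of the 11. Windows were matched for 7 of the 10 iron genes, and Trf, Slc40a1 and Slc11a2 had no match. A match describes letters only, and no factor's binding was measured.

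Hepcidin, the hormone itself, was not measurable. The single Hamp probe was not well above background on any of the 8 arrays. Its processed signal was 11.01, 4.58 and 4.89 in NoRX, 25.0, 5.31 and 8.28 in CM and 8.85 and 9.31 in DIFF. Even the highest of these, CM replicate 1, lay under 27.5, the lowest signal well above background on that array, and on the other arrays this limit was 18.9 to 43.2. No fold change is given, since all groups were below background and a difference under that limit was not detectable. Hamp2, the second hepcidin gene of mice, was also not tested because too few arrays had it above background.

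**Figure D2:**
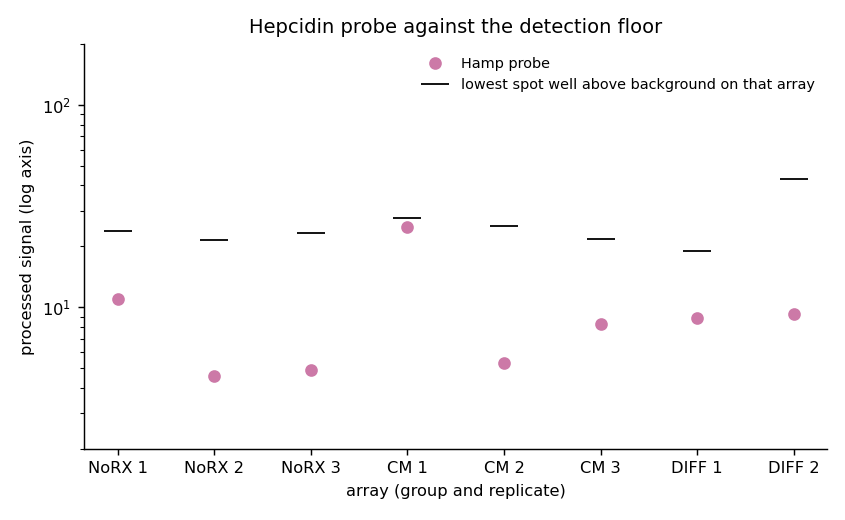
Processed signal of the Hamp probe (points, log axis) on each of the 8 arrays, with a dash at the lowest signal well above background on that array. All 8 points lie under their dash, the nearest being CM replicate 1 at 25.0 against 27.5.

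Trf, the iron carrier that hepatocytes secrete, was highest in DIFF. Its level was 5.36, 5.37 and 5.33 in NoRX, 5.74, 5.46 and 5.71 in CM and 7.09 and 6.74 in DIFF. The arrays of the 3 media did not overlap, in the order NoRX, CM, DIFF. Trf rose 2.94-fold in DIFF against NoRX (1.56 ± 0.11, adjusted p = 6.66e-07, limma) and was 2.42-fold higher in DIFF than in CM (1.27 ± 0.11, adjusted p = 2.03e-06). Its rise in CM was small, 1.22-fold (0.28 ± 0.10, adjusted p = 0.0332, limma), and the call was lost in 10 of 23 alternative settings, among them the slide row as a block and those without NoRX replicate 1, 2 or 3 or CM replicate 1 or 3. A dimmer Trf probe gave 0.42 ± 0.11 for CM and 1.88 ± 0.12 for DIFF, both past the test.

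Tfrc, the main receptor for transferrin uptake, was low in CM. Its level was 2.15, 1.94 and 2.01 in NoRX, 0.29, 0.11 and 0.38 in CM and 2.31 and 2.06 in DIFF. The 3 CM arrays lay below all others, while NoRX and DIFF overlapped. Tfrc fell 3.42-fold in CM against NoRX (-1.77 ± 0.10, adjusted p = 1.22e-07, limma) and was 3.80-fold higher in DIFF than in CM (1.93 ± 0.11, adjusted p = 5.3e-08). Between DIFF and NoRX it did not pass (0.15, 95% interval -0.08 to 0.39, adjusted p = 0.28). This probe had 10 spots on each array, of which 1 on DIFF replicate 2, with a signal of 9522, and 1 on another array were marked as outliers and left out.

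The 3 probes of Tfrc were all lower in CM. Probe A_51_P167876 differed by -1.15 ± 0.18 (adjusted p = 0.000247, limma over all probes) and probe A_65_P06446 by -1.69 ± 0.22 (adjusted p = 6.78e-05), beside the -1.77 of the brightest. Between DIFF and NoRX these 2 probes were lower (-0.20 and -0.35) and the brightest higher (0.15), and none of the 3 passed.

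Tfr2, a receptor that is mostly a sensor of transferrin-bound iron in hepatocytes, was higher in CM. Its level was -2.64, -2.34 and -2.44 in NoRX, -1.51, -1.70 and -1.67 in CM and -2.99 and -2.32 in DIFF. All CM arrays lay above all others, and the DIFF arrays lay on both sides of NoRX. Tfr2 rose 1.80-fold in CM against NoRX (0.85 ± 0.17, adjusted p = 0.00158, limma) and was 2.05-fold lower in DIFF than in CM (-1.03 ± 0.19, adjusted p = 0.000723; -0.48 after normexp background correction, still past the test). Against NoRX the DIFF value (-0.18, 95% interval -0.60 to 0.24, adjusted p = 0.474) turned with the array left out: it was 0.15 without DIFF replicate 1, and it passed without DIFF replicate 2 (-0.52, adjusted p = 0.0178). The processed signal of Tfr2 was 93.6 on DIFF replicate 1 and 195 on DIFF replicate 2, where the local background of its spot was marked as outlying. Tfrc and Tfr2 thus differed in opposite directions between CM and NoRX.

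Slc11a2, which moves iron out of endosomes, varied little on its brighter probe. The level was 1.31, 1.24 and 1.22 in NoRX, 1.56, 1.45 and 1.52 in CM and 1.55 and 1.29 in DIFF. It rose 1.19-fold in CM (0.25 ± 0.08, adjusted p = 0.0227, limma). That call was lost in 7 of 23 settings, among them the slide row as a block and those without NoRX replicate 2 or 3 or CM replicate 1 or 3, and with the mean of both probes the value was -0.21 and did not pass. DIFF overlapped both other media and passed against neither (0.16 against NoRX, 95% interval -0.04 to 0.36; -0.09 against CM, 95% interval -0.29 to 0.11). The dimmer probe read -0.78 on NoRX replicate 2 against -3.78 and -3.79 on the other NoRX arrays, a processed signal of 431 against 55.7 and 50.6, and passed in no comparison.

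Of the ferritin genes, Fth1, the heavy chain with ferroxidase activity, was at 8.37, 8.38 and 8.46 in NoRX, 8.77, 8.79 and 8.76 in CM and 8.77 and 8.50 in DIFF. It rose 1.30-fold in CM (0.37 ± 0.08, adjusted p = 0.00187, limma). All DIFF arrays lay above NoRX, by 0.23 on average, just outside the threshold (95% interval 0.04 to 0.42, adjusted p = 0.0507). That difference passed in 6 of 22 settings, with median centring (0.39) and without DIFF replicate 2 (0.37) among them.

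Ftl1, the light chain that aids iron storage in the shell, depended on the probe. Its brighter probe, A_55_P1968245, was at 8.99, 9.03 and 9.13 in NoRX, 8.95, 8.91 and 8.88 in CM and 8.83 and 8.57 in DIFF. The CM arrays were all below NoRX, but the difference did not pass (-0.14, 95% interval -0.31 to 0.03, adjusted p = 0.163). It passed as lower in 6 of 23 settings, among them the fit of only the compared groups (adjusted p = 0.0122, limma). The dimmer probe, A_55_P1983959, was at 7.55, 7.61 and 7.69 in NoRX, 8.20, 8.19 and 8.11 in CM and 7.43 and 7.17 in DIFF, and rose in CM by 0.55 ± 0.08 (adjusted p = 0.00015, limma over all probes). With the mean of both probes the CM difference was 0.21 and passed (adjusted p = 0.0462), so no direction is given for Ftl1 in CM. Both probes were lower in DIFF than in NoRX (-0.35 ± 0.09 with adjusted p = 0.00777, and -0.32 ± 0.09 with adjusted p = 0.0145). The call of the brighter probe was lost under median centring (-0.19), quantile normalization (-0.09), array weights (-0.34) and the slide row as a block (-0.30). Between DIFF and CM the brighter probe was lower but did not pass (-0.21 ± 0.09, adjusted p = 0.0593, limma). The dimmer probe passed there (-0.87 ± 0.09, adjusted p = 7.53e-06, limma over all probes), and so did the mean of both (-0.54, adjusted p = 0.000314, limma). Both ferritin genes have many processed pseudogene copies, so that their probes can take signal from near-identical sequence and are uncertain as single genes.

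**Figure D3:**
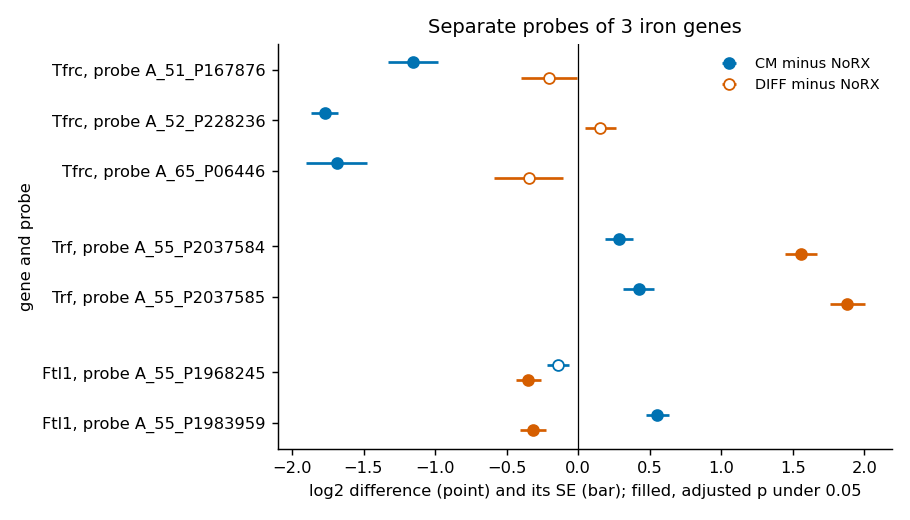
Log2 difference (point) and its SE (bar) of each tested probe of Tfrc, Trf and Ftl1, for CM against NoRX and DIFF against NoRX, filled where the adjusted p is under 0.05. The 3 Tfrc probes lie at -1.15 to -1.77 in CM, and the 2 Ftl1 probes lie on opposite sides of 0 in CM (-0.14 and 0.55).

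Slc40a1, which encodes the exporter ferroportin, was high in DIFF. Its level was 3.44, 3.51 and 3.52 in NoRX, 3.58, 3.59 and 3.76 in CM and 4.80 and 4.63 in DIFF. Both DIFF arrays lay above all others. Slc40a1 rose 2.34-fold in DIFF against NoRX (1.22 ± 0.08, adjusted p = 4.97e-07, limma) and was 2.10-fold higher than in CM (1.07 ± 0.08, adjusted p = 8.66e-07). CM lay above NoRX without overlap, but the difference did not pass (0.15, 95% interval -0.01 to 0.32, adjusted p = 0.117). It passed in 6 of 23 settings, each of which left out, averaged or downweighted DIFF arrays or their marked spots.

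Hfe encodes a relative of class I MHC proteins that binds TFRC. Hfe and Trf were the only genes of the 9 that passed in all 3 comparisons. Its level was 0.61, 0.60 and 0.48 in NoRX, 1.04, 1.00 and 1.06 in CM and -0.25 and -0.54 in DIFF. The groups did not overlap, in the order DIFF, NoRX, CM. Hfe rose 1.38-fold in CM against NoRX (0.47 ± 0.09, adjusted p = 0.00103, limma) and fell 1.95-fold in DIFF (-0.96 ± 0.10, adjusted p = 1.34e-05). Between DIFF and CM it differed 2.69-fold (-1.43 ± 0.10, adjusted p = 2.96e-07).

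Ireb2, which encodes an RNA-binding protein that acts when iron is short, passed in no comparison of the main fit. The level was -1.64, -1.72 and -1.80 in NoRX, -1.52, -1.48 and -1.60 in CM and -1.70 and -1.87 in DIFF. CM lay highest without overlap. The differences were 0.19 for CM against NoRX (95% interval -0.04 to 0.42, adjusted p = 0.155), -0.07 for DIFF against NoRX (-0.32 to 0.19, adjusted p = 0.676) and -0.25 for DIFF against CM (-0.51 to 0.0018, adjusted p = 0.0809). Among the alternatives, CM against NoRX passed in 2 of 23 settings and DIFF against CM in 1 of 23.

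**Figure D4:**
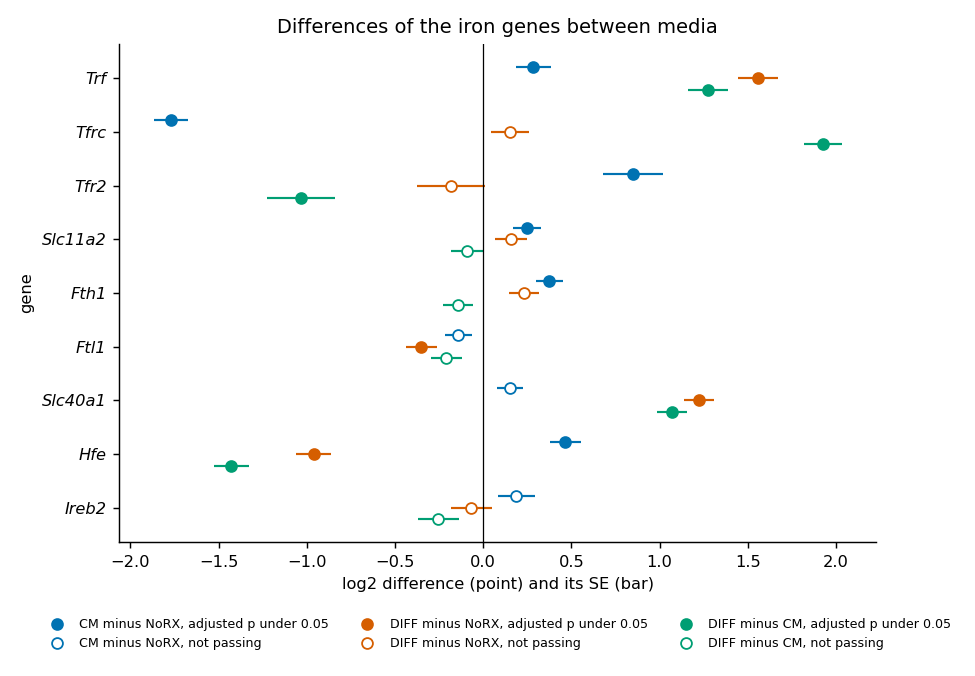
Log2 difference (point) and its SE (bar) of the 9 tested iron genes in each of the 3 comparisons, filled where the adjusted p is under 0.05. Tfrc and Tfr2 lie on opposite sides of 0 in CM against NoRX (-1.77 and 0.85), and Trf, Slc40a1 and Hfe lie farthest from 0 in DIFF against NoRX (1.56, 1.22 and -0.96).

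Arrays without overlap are common in groups of this size: all 9 iron genes were without overlap between CM and NoRX (71% of all genes were), 5 between DIFF and NoRX (57.2%) and 7 between DIFF and CM (68.5%). Within row 1 of the slide, which holds CM replicate 1 and the NoRX arrays, the differences were -1.74 for Tfrc, 0.96 for Tfr2, 0.47 for Hfe, 0.37 for Fth1 and 0.38 for Trf. With 1 CM array there, all spread within a group comes from the NoRX arrays, and these are given as values with no test. With the row as a block over all arrays the same 5 differences result by construction. CM replicate 1 is the only CM array in the row of NoRX, and only the spread comes from all arrays. Tfrc, Tfr2, Hfe and Fth1 passed, while Trf (adjusted p = 0.0621, limma) and Slc11a2 (0.30, adjusted p = 0.0895, limma) did not. Within row 2, which holds 2 CM arrays and both DIFF arrays, they were 1.94 for Tfrc, 1.32 for Trf, 1.04 for Slc40a1, -1.42 for Hfe and -0.98 for Tfr2, and each passed with the row as a block. No row holds both DIFF and NoRX arrays. With the row as a block the differences between DIFF and NoRX were 1.71 for Trf, 1.13 for Slc40a1 and -0.95 for Hfe. Each passed, but the rows are linked only through CM, of which row 1 holds replicate 1 alone.

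Around these 10 genes, a list of 95 further genes of iron and heme handling was examined, of which 83 could be tested. In CM against NoRX 36 rose, 13 fell and 34 did not pass (median 0.19), where 26.9% of all genes rose and 25.3% fell. In DIFF against NoRX 23 rose, 18 fell and 42 did not pass (median 0.03), where 14% of all genes rose and 28.2% fell, and with median centring 23 rose and 9 fell. Between DIFF and CM 19 were higher, 36 lower and 28 did not pass (median -0.18), where 23.6% of all genes were higher and 35.6% lower, and with median centring 21 were higher and 22 lower. Over all genes median centring turned 1965 higher and 3949 lower calls into 2401 and 2133 for DIFF against NoRX, and 3311 and 4987 into 3932 and 3183 for DIFF against CM.

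In CM, 9 of the 19 tested genes that act on hepcidin rose and 2 fell (median 0.23), where 26.9% of all genes rose and 25.3% fell. Bmp2, a BMP ligand that induces hepcidin in the liver, was at 1.62, 1.59 and 1.40 in NoRX, 4.27, 4.24 and 4.13 in CM and 1.21 and 0.89 in DIFF. It rose 6.39-fold in CM (2.68 ± 0.09, adjusted p = 6.94e-09, limma) and was 8.96-fold lower in DIFF than in CM. Tmprss6, a protease that restrains hepcidin by cleaving the BMP co-receptor hemojuvelin, was at 3.70, 3.92 and 3.70 in NoRX, 5.90, 5.87 and 5.86 in CM and 5.29 and 4.94 in DIFF. It rose 4.29-fold in CM (2.10 ± 0.10, adjusted p = 3.45e-08, limma). Id1, a BMP target gene, rose 1.96-fold in CM, while Smad5 and the IL-6 signal transducer gene Il6st fell 1.39-fold and 1.35-fold. The members that rose thus include both an inducer and a restrainer of hepcidin. The ligand gene Bmp6, the hemojuvelin gene Hjv, Erfe and Il6 were below the detection filter and not tested.

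In DIFF against NoRX 6 of these 19 genes rose and 6 fell, where 14% of all genes rose and 28.2% fell. The IL-6 receptor gene Il6ra was at 0.80, 0.60 and 0.61 in NoRX and 3.18 and 2.88 in DIFF, 5.12-fold higher (2.36 ± 0.10, adjusted p = 1.3e-08, limma). Fgl1, a secreted liver protein that binds BMP ligands, rose 7.65-fold (2.94 ± 0.60), and Atoh8, a BMP-responsive transcription factor, was well above background on no NoRX array and at least 3.73-fold higher (adjusted p = 0.00357, limma). For such a bound, each array of the dim group was given the gene's own signal or the array's lowest signal well above background, whichever was higher, and their mean was set against that of the bright group. The inhibitory Smad7 fell 2.56-fold, the BMP receptor gene Acvr1 1.83-fold and the inhibitory Smad6 1.74-fold. Between DIFF and CM 4 were higher and 11 lower, where 23.6% of all genes were higher and 35.6% lower. Examples were Il6st, 3.81-fold higher, and Smad6, 2.75-fold lower.

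Among 8 genes of the transferrin cycle and other uptake, 3 rose and 2 fell in CM (26.9% and 25.3% of all genes), and 3 rose and none fell in DIFF against NoRX (14% and 28.2%). Lcn2, which binds iron-carrying siderophores, fell 6.01-fold in CM (-2.59 ± 0.19) and rose 98.2-fold in DIFF (6.62 ± 0.22). The ferrireductase gene Steap2 rose by 0.58 on the log2 scale in CM, and Steap1 fell 1.21-fold. Slc39a14, a transporter for iron that is not bound to transferrin, was at 0.39, 0.31 and 0.26 in NoRX, 0.73, 0.72 and 0.71 in CM and 1.63 and 1.40 in DIFF. It rose 1.32-fold in CM (0.40 ± 0.08) and 2.29-fold in DIFF (1.19 ± 0.09), without overlap of the 3 media. Meltf, a relative of transferrin at the cell surface, was well above background on no NoRX array and at least 1.76-fold higher in CM (adjusted p = 0.0143, limma).

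Of 2 tested genes of iron oxidation and reduction, neither passed in CM. Cp, the ferroxidase ceruloplasmin that works with ferroportin, was at -0.56, -0.77 and -0.28 in NoRX, -0.10, -0.61 and 0.28 in CM and 3.90 and 3.51 in DIFF. Cp rose 18.9-fold in DIFF against NoRX (4.24 ± 0.22, adjusted p = 5.9e-08, limma) and was 14.4-fold higher than in CM. Heph and Hephl1, which encode the other ferroxidases of the list, were not tested because too few arrays had them above background.

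Of 9 genes of iron sensing, chaperones and ferritin turnover, 1 rose and 2 fell in CM (26.9% and 25.3% of all genes). Fbxl5, the iron-sensing ligase part that targets IREB2 for degradation, was at 1.57, 1.58 and 1.52 in NoRX, 2.15, 2.20 and 2.15 in CM and 1.70 and 1.41 in DIFF. It rose 1.53-fold in CM (0.61 ± 0.08, adjusted p = 8.35e-05, limma). The iron-sulfur chaperone genes Glrx3 and Bola2 fell 1.23-fold and 1.16-fold there. Aco1, whose protein also binds iron-responsive elements, and Ncoa4, the receptor for ferritin breakdown, passed in no comparison: in CM their differences were -0.10 and -0.01. In DIFF against NoRX, Pcbp2, an iron chaperone, rose 1.27-fold and Glrx3 fell 1.27-fold.

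Of 19 genes of heme synthesis, breakdown and transport, 11 rose and 2 fell in CM (26.9% and 25.3% of all genes). Hpx, the plasma carrier of heme, rose 3.24-fold (1.70 ± 0.10), Blvrb, a biliverdin reductase, 2.63-fold (1.39 ± 0.09) and Hmox1, which opens heme and frees its iron, 2.40-fold (1.26 ± 0.09). Uros, an enzyme of heme synthesis, fell 2.09-fold and the heme exporter gene Flvcr1 1.63-fold. In DIFF against NoRX 4 rose and 6 fell (14% and 28.2% of all genes). Hp, the plasma carrier of hemoglobin, was well above background on no NoRX array and at least 1288-fold higher in DIFF (adjusted p = 5.46e-11, limma). Slc46a1, a folate and heme transporter, fell 3.95-fold (-1.98 ± 0.08).

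Of 22 genes of mitochondrial iron and iron-sulfur clusters, 10 rose and 5 fell in CM (26.9% and 25.3% of all genes), and 6 rose and 4 fell in DIFF against NoRX (14% and 28.2%). The mitochondrial iron importers Slc25a37 and Slc25a28 rose 3.02-fold and 1.74-fold in CM, while the cluster assembly gene Iba57 fell 1.81-fold. In DIFF Slc25a28 rose by 0.59 on the log2 scale, and the ferredoxin reductase gene Fdxr fell 1.61-fold. Of 4 other genes whose transcripts can carry an iron-responsive element, 2 rose in CM and none fell, and 2 rose and 1 fell in DIFF. Epas1 rose 1.46-fold in CM and 1.51-fold in DIFF, and Cdc42bpa rose 1.52-fold in CM and fell 1.76-fold in DIFF. Between DIFF and CM, where 23.6% of all genes were higher and 35.6% lower, 4 heme genes were higher and 11 lower, and 5 mitochondrial genes were higher and 9 lower. Of the uptake genes 3 were higher and 2 lower, of the sensing genes none and 2, of the oxidation genes 2 and none, and of the other transcripts with an iron-responsive element 1 and 1.

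**Figure D5:**
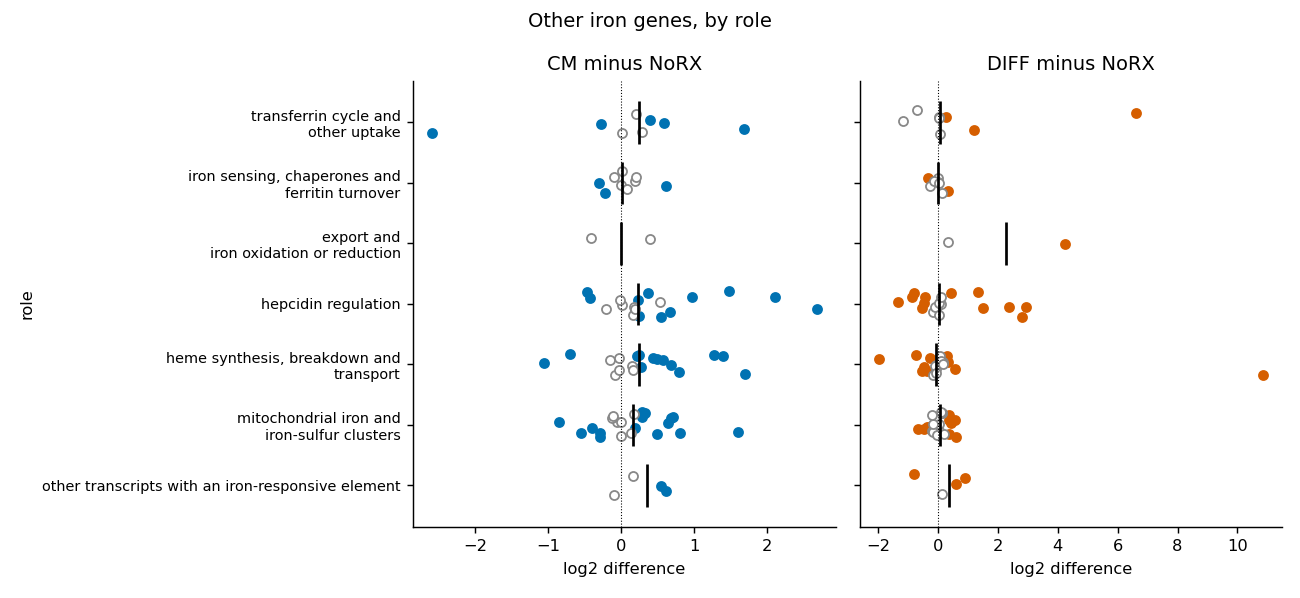
Log2 difference of each of the 83 other iron and heme genes tested, by role, for CM against NoRX and DIFF against NoRX, filled where the adjusted p is under 0.05 and open where it is not, with a bar at each role's median. The point farthest right is Hp in DIFF, which was not above background in NoRX, so that its fitted difference is no exact size, and the 2 panels differ in scale.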

How the data were processed

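The authors extracted spot intensities using Agilent's Feature Extraction software (version 11.0.1.1), a version named in the submitters' processing notes and, per the file headers, in each file. The deposited processed signal is an intensity after background subtraction, per the file headers, and the deposited series table held the same values. Here its log2 was taken minus each array's 75th percentile over spots that are no controls. Outlier spots were left out, spots of a probe averaged, and probes kept if well above background on 2 or more arrays. Of 55681 probes, 27235 matched the RefSeq table (GRCm38.p6) and 28446 did not. The array design names mm9, so no probe positions are given. A gene's brightest probe was used. All 8 arrays entered 1 fit with limma 3.58.1 in R 4.3.3 (lmFit, eBayes with trend, two-sided, Benjamini-Hochberg over 14025 genes), tested on simulated data. The number of arrays limits the precision.

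The 10 iron genes and the lists were chosen with earlier results of these data known. All 10 are named. Of the other lists, up to 3 genes per direction could be named, past the test, without overlap and well above background throughout 1 group; undetected genes, Aco1 and Ncoa4 were named outside that rule. Alternatives covered background, scaling, filter, probes, groups fitted, array weights, slide row, replicate number, marked spots and single arrays. The DIFF titles number 2 replicates, while another label numbers both 1. Figures used matplotlib 3.10.9.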

Additional observations from a re-analysis of the deposited data

How the results depend on the processing

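Across the alternatives that could be fitted (23 settings, or 22 for DIFF against NoRX, where no slide row holds both groups), the calls of Tfrc, Tfr2, Hfe and Fth1 in CM against NoRX, of Trf, Slc40a1 and Hfe in DIFF against NoRX, and of Tfrc, Trf, Slc40a1, Hfe and Tfr2 in DIFF against CM held their direction and stayed past the threshold. The 23 include the fit within 1 slide row, which repeats the row-block differences and has 1 CM array for CM against NoRX. They also include the deposited series table, which held the same values as the files. Neither adds separate support, and both are in the counts that follow. Among all values of single iron genes, 545 kept direction and side, 21 lost the call, 32 gained it and 14 turned sign. Sign turned under normexp on the median signals (Tfr2 0.11 and Ireb2 0.057 in DIFF against NoRX), under median centring (Ireb2 0.091 in DIFF against NoRX; Slc11a2 0.081 and Fth1 0.029 in DIFF against CM) and with the mean of all probes (Slc11a2 -0.21 and Ftl1 0.21 in CM; Tfrc -0.13 and Slc11a2 -0.36 in DIFF against NoRX). It also turned with the background-marked spots of DIFF replicate 2 left out (Ireb2 0.053 against NoRX, Slc11a2 0.030 against CM). With 1 DIFF array left out, Tfr2 went from -0.52 to 0.15 and Ireb2 from -0.15 to 0.019 against NoRX, and Slc11a2 from -0.22 to 0.039 against CM. The cause was not tested.

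Without the marked spots, 8 iron genes passed in DIFF against NoRX (5 higher, 3 lower) in place of 4. The median difference of all genes was then 0.011, in place of -0.10. The share of all genes that passed in that setting is not given here, so the 8 give no result particular to iron genes. Leaving out single arrays gave 4 to 8 iron genes in CM against NoRX, 4 to 7 in DIFF against NoRX (7 without DIFF replicate 2) and 5 to 9 in DIFF against CM (9 without DIFF replicate 1). The same gave 41 to 61, 36 to 54 and 49 to 66 other iron genes, and 6105 to 9306, 4730 to 8485 and 7339 to 9784 of all genes. Array weights gave 2987 genes in DIFF against NoRX and 5314 in DIFF against CM, and 24 other iron genes in DIFF against NoRX. The slide row as a block gave 4795 genes in CM against NoRX and 2803 in DIFF against NoRX, and 24 other iron genes there. With the replicate number as a block, 6, 4 and 5 iron genes and 6860, 5286 and 7763 of all genes passed in CM against NoRX, DIFF against NoRX and DIFF against CM, and no call on an iron gene changed. The deviations of same-numbered NoRX and CM arrays correlated at -0.01, 0.01 and -0.06, of CM and DIFF arrays at 0.087 and 0.17 and of NoRX and DIFF arrays at -0.02 and -0.02, so the numbers were not taken to pair arrays. Normexp on the median signals and the 75th percentile without outlier spots were chosen after seeing the data, and normexp on mean signals was not run. Without a DIFF array, the remaining one is assumed to vary like the other groups. Signal near background limits Hamp.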
